A study of Homo sapiens with 12 samples.

Results

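The genes described here are 10 of the plasma membrane repair machinery in human diffuse large B cell lymphoma cells that were grown until they tolerated venetoclax. They are the ferlins DYSF and MYOF, the annexins ANXA1, ANXA2, ANXA5 and ANXA6, the S100 proteins S100A10, S100A11 and S100A4, and the scaffold protein AHNAK. They make up 10 of the 60675 Ensembl identifiers listed for each library. Each was found through its symbol in GENCODE release 44, and the set was chosen by its measured RNA in the same resistant and parental cells, so its values are given as a description and carry no test. Venetoclax (ABT-199) is an inhibitor of the anti-apoptotic protein BCL2, and the design asked how RNA levels differ once lymphoma cells have acquired resistance to it. SUDHL6 and SUDHL16 are established lymphoma lines, and from each a resistant line had been raised by long exposure to rising venetoclax until it grew at no less than 10 times the original IC50, and was then kept in the drug. According to the methods, parental and resistant cells were moved to fresh media for experiments. Whether venetoclax was present when RNA was taken is not stated. The 4 groups were therefore SUDHL6 parental, SUDHL6 resistant, SUDHL16 parental and SUDHL16 resistant, with 3 libraries of total RNA in each and 12 in all. No gene was edited in any group. Each resistant line is a single derived line, and no label says that its libraries came from separate cultures, so the spread between libraries may be technical.

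When the plasma membrane tears, calcium enters the cell, and proteins that bind calcium and acidic phospholipids gather at the wound. Dysferlin brings vesicles to the tear and helps them fuse, annexins bind the exposed lipid and draw the edges together, and dimers of S100 proteins join annexins to each other and to the large scaffold AHNAK. The machinery is best known from skeletal muscle, where loss of dysferlin causes muscular dystrophy, and several annexins and S100 proteins are also known from activated and memory lymphocytes.

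Of the promoters of the 10 genes, those of DYSF, ANXA2 and S100A10 are shown, because these are the genes of the set called as different between resistant and parental cells in either line. The 250 bases before each RefSeq start site (GRCh38.p14) are written 5′ to 3′ on the strand of the gene, with CpG dinucleotides in capitals.
DYSF, chr2:71453311-71453560, plus strand: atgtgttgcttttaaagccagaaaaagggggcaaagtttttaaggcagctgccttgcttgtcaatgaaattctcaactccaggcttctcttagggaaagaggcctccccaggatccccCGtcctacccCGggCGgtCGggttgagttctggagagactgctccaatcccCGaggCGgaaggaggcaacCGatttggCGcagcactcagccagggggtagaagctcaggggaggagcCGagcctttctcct
ANXA2, chr15:60397987-60398236, minus strand: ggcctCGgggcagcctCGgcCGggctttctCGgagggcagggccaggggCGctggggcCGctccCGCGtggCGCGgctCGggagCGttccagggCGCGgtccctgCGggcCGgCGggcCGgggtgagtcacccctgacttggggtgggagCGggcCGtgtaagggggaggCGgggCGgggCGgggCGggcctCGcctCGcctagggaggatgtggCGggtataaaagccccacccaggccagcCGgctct
S100A10, chr1:151993860-151994109, minus strand: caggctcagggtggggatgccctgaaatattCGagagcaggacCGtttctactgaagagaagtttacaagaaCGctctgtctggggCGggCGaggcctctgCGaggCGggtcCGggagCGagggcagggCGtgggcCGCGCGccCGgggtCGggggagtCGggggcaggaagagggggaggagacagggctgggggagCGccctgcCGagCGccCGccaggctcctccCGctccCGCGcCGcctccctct
The 3 stretches differ in base composition. The DYSF stretch held 9 CpG and was 56.4% G or C, close to the medians of 11 CpG and 58% over 35116 promoters of the same length. The ANXA2 stretch held 28 CpG, more than 84.1% of all promoters, and was 78% G or C. The S100A10 stretch held 24 CpG, more than 76.3% of all promoters. All 10 genes had an entry, and ANXA1, whose stretch held 0 CpG and was 38.4% G or C, stood at the other end. Of 4 motifs searched on both strands, the AP-1 motif TGANTCA matched only the ANXA2 stretch among the 10 genes and 6.57% of all promoters. The GC box GGGCGG matched 42.6% of all promoters and 7 of the 10 genes, with 4 matches for AHNAK, 3 for ANXA2 and 1 each for DYSF, ANXA5, ANXA6, S100A10 and S100A11. The TATA motif TATAAA (10.7% of all promoters) matched those of ANXA1, ANXA2 and S100A4, and CCAAT (32%) those of DYSF, ANXA1 and ANXA6. The matches of ANXA6 lie in the first of its 2 entries, and the second had 0 for each motif. Successive GC box matches of ANXA2 share a base, and a match describes the letters only.

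Library totals ranged from 33992784 to 40885665 counts in SUDHL6 and from 4131927 to 22068221 in SUDHL16. Kit and instrument differed between the lines (NEBNext Ultra II and HiSeq for SUDHL6, Illumina stranded total RNA with ribosomal depletion and NovaSeq for SUDHL16), so a difference in level between the lines and one between the protocols cannot be told apart. The SUDHL16 parental library CE-26 stood apart. It had the lowest total, 55.4% of its counts lay on protein-coding genes, where the 5 remaining SUDHL16 libraries had 84.3% to 90.2%, and 34938 genes had a count in it, where those 5 had 20896 to 24655. Results for SUDHL16 are therefore also given without it. The B cell markers MS4A1, CD79A, CD79B, CD22 and PAX5 had counts in every library, and CD22 was at 477 to 919 CPM (counts scaled to the size of the library). The summed levels of the myeloid (4 genes), fibroblast (3), epithelial (3) and muscle (3) markers were at most 2.21 CPM in SUDHL6. In SUDHL16 these sums reached 10.3, 16.6, 5.66 and 22.6 CPM in CE-26, and outside CE-26 they were at most 1.24, 0.33, 0 and 3.68 CPM. The T cell markers (4 genes) summed to 3.1 to 3.82 CPM in SUDHL6 to 18.1 to 22.3 CPM in SUDHL16 parental libraries and to 23.3 to 28.1 CPM in SUDHL16 resistant ones, with CD3D and CD2 at 0 in all but 1 library each. CD3E was at 1.15, 4.33 and 1.3 CPM in SUDHL16 parental and 13.1, 13.3 and 10.8 CPM in SUDHL16 resistant libraries, so this marker was higher in resistant cells. TRAC went the other way, at 16.9, 16.3 and 19.1 CPM in SUDHL16 parental and 10.2, 14.7 and 15.7 CPM in SUDHL16 resistant libraries. The part of such RNA in the differences below was not tested. In RNA from whole cultures, fewer cells of a type and less RNA per cell cannot be told apart.

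**Figure D1:**
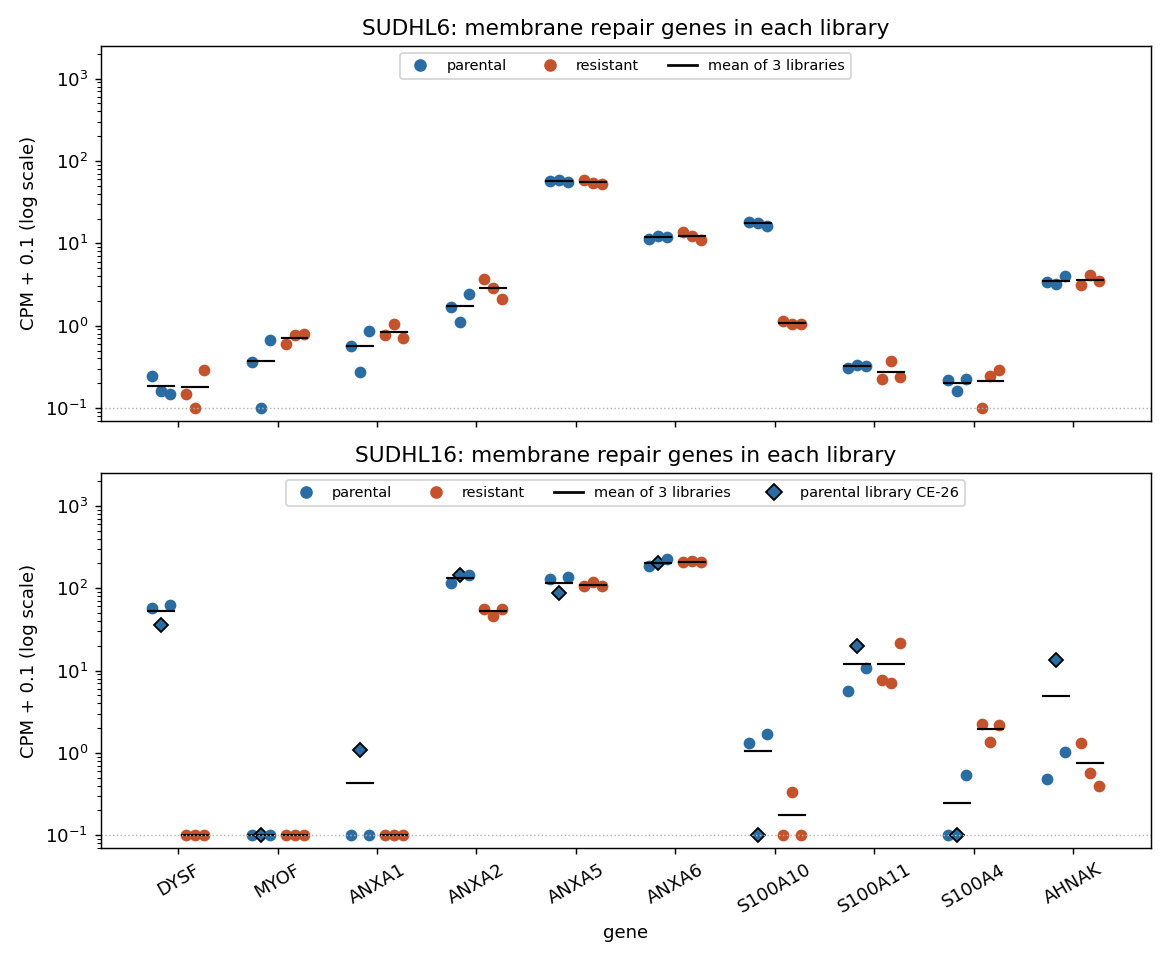
CPM plus 0.1 on a log axis for the 10 membrane repair genes in each library of SUDHL6 (top) and SUDHL16 (bottom), with blue points for parental, red points for resistant, a black line for the mean of 3 libraries and a diamond for CE-26. DYSF sits between 35.6 and 63.2 CPM in the SUDHL16 parental libraries and at 0 in the resistant ones, and S100A10 sits between 16.3 and 18.1 CPM in SUDHL6 parental cells and between 0.94 and 1.04 CPM in SUDHL6 resistant cells.

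The order of the 10 genes by level differed between the groups. On the scale of CPM per kilobase of the canonical transcript (scaled over all 12 libraries), ANXA5 had the highest level of the 10 genes in SUDHL6 parental cells, at 38.2 ± 0.749 (SD, n = 3), followed by S100A10 at 28.6 ± 1.59, ANXA6 at 4.46 ± 0.192 and ANXA2 at 1.17 ± 0.483, and the libraries of these 4 genes did not overlap. The other 6 genes had means below 0.5. In SUDHL6 resistant cells ANXA5 (37.0 ± 2.19) and ANXA6 (4.69 ± 0.579) stood first and second, and S100A10 had moved to 1.61 ± 0.0916, within the range of ANXA2 (1.98 ± 0.542). In SUDHL16 parental cells ANXA2 (77.4 ± 7.84), ANXA5 (64.7 ± 18.7) and ANXA6 (63.6 ± 7.58) led, and neighbours in this order did not differ beyond their spread. S100A11 followed at 18.6 ± 9.97 and DYSF at 6.99 ± 2.34, and the libraries of these 2 genes did not overlap. In SUDHL16 resistant cells ANXA6 (66.7 ± 1.21) and ANXA5 (61.8 ± 4.28) led with overlapping libraries, and ANXA2 followed at 31.0 ± 3.06, overlapping S100A11 (19.9 ± 13.9).

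DYSF encodes dysferlin, the calcium sensor that carries vesicles to a membrane tear. The gene (ENSG00000135636) lies on the plus strand of chromosome 2 from 71453561 to 71686763 in GRCh38, with 56 exons in its canonical transcript, and an antisense lncRNA (ENSG00000289327, not analysed here) overlaps it. In SUDHL16 parental libraries CE-25, CE-26 and CE-27 its level was 57.3, 35.6 and 63.2 CPM, from 1043, 107 and 1020 counts. In the resistant libraries CE-28, CE-29 and CE-30 it had 0, 0 and 0 counts. Every parental library was thus far above every resistant one, and the lowest parental value was that of CE-26. With the mean of 52.0 ± 14.5 CPM (SD, n = 3) set against the 3 counts that a total of 0 over the resistant libraries allows (0.0502 CPM), DYSF was at least 1038-fold lower in resistant cells, and at least 1202-fold lower without CE-26. These bounds cover counting error only. In SUDHL6 DYSF was close to absent in both groups, with 5, 2 and 2 counts in parental and 2, 0 and 7 in resistant libraries, at most 0.193 CPM. The groups overlapped there, and the gene was below the filter on low counts. MYOF, which encodes the related ferlin myoferlin (ENSG00000138119, minus strand of chromosome 10 from 93306429 to 93482334), was not detected in SUDHL16. It had 0 counts in all 6 SUDHL16 libraries, which allows up to 0.0309 CPM. In SUDHL6 it had 0.264, 0 and 0.565 CPM in parental and 0.497, 0.668 and 0.688 CPM in resistant libraries, with overlapping groups and a log2 fold change of 1.09 (SE 0.61) that was not called. Without the parental library CE-9 the log2 fold change was 2.19 and was called.

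**Figure D2:**
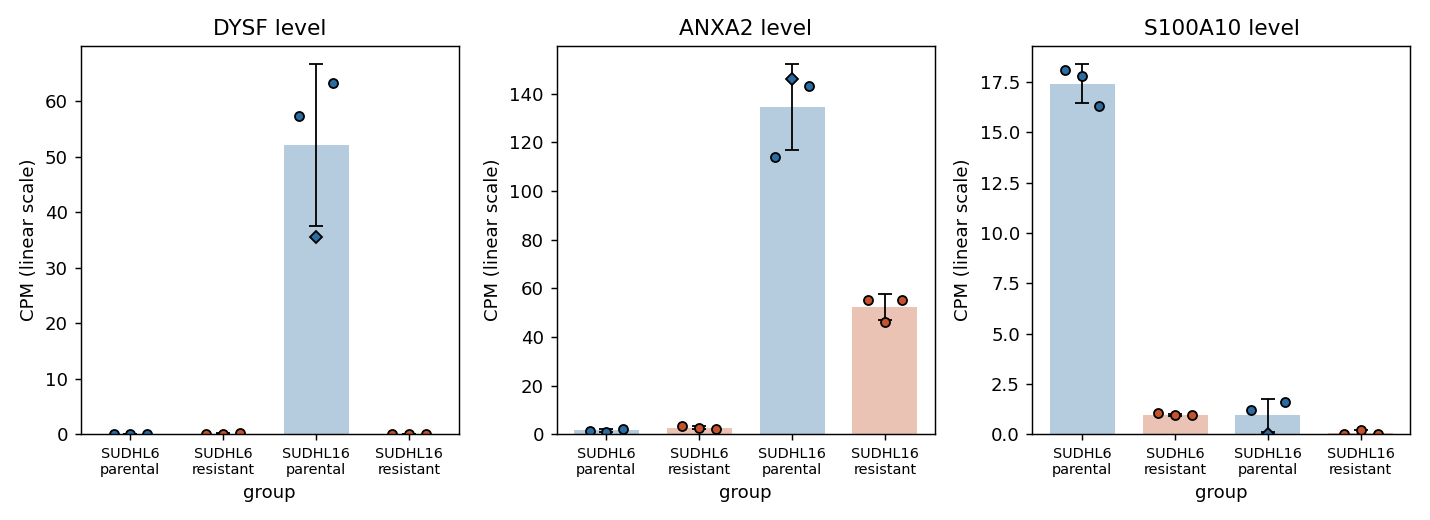
CPM on a linear axis for DYSF, ANXA2 and S100A10 in the 4 groups, with bars for the mean of 3 libraries, error bars for the SD, points for libraries and a diamond for CE-26. The DYSF bar stands at 52.0 CPM in SUDHL16 parental cells only, ANXA2 stands at 135 and 52.3 CPM in SUDHL16 parental and resistant cells, and S100A10 stands at 17.4 CPM in SUDHL6 parental cells and below 1 CPM in the other 3 groups.

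ANXA2 and S100A10 encode the 2 subunits of one complex, in which an S100A10 dimer (p11) joins a pair of annexin A2 molecules at the inner face of the membrane. ANXA2 (ENSG00000182718) lies on the minus strand of chromosome 15 from 60347134 to 60402883. In SUDHL16 its level was 114, 146 and 143 CPM in parental and 55.4, 46.3 and 55.4 CPM in resistant libraries. All 3 resistant libraries were below all 3 parental ones, with means of 135 ± 17.8 and 52.3 ± 5.27 CPM and a log2 fold change of −1.38 (SE 0.23). Without CE-26 it was −1.29 (SE 0.22). The call of ANXA2 was lost when any one of CE-27, CE-28, CE-29 or CE-30 was left out, with log2 fold changes of −1.32, −1.40, −1.30 and −1.41. In SUDHL6 ANXA2 was far lower, at 1.58, 1.0 and 2.36 CPM in parental and 3.55, 2.80 and 2.04 CPM in resistant libraries. These groups overlapped, and the log2 fold change of 0.75 (SE 0.27) pointed up. It was called, and lost the call without CE-7, CE-8, CE-10 or CE-11, with log2 fold changes of 0.72, 0.50, 0.54 and 0.75. CE-8 had the lowest value of ANXA2 in SUDHL6, as it had of MYOF and ANXA1. Its epithelial marker sum was also the lowest, at 0.206 CPM, close to that of CE-7 (0.235 CPM). That sum was 0.884 CPM in CE-9 and 0.798 to 1.14 CPM in the resistant libraries. The fibroblast marker sum went the other way, at 1.59 CPM in CE-8, 1.17 CPM in CE-7 and 1.2 CPM in CE-9. The part of such RNA in the ANXA2 difference was not tested. ANXA2 has processed pseudogenes that could take reads from it, and ANXA2P1, ANXA2P2 and ANXA2P3 each had at most 9 counts in a library.

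S100A10 (ENSG00000197747) lies on the minus strand of chromosome 1 from 151982915 to 151993859. In SUDHL6 its level was 18.1, 17.8 and 16.3 CPM in parental and 1.04, 0.94 and 0.963 CPM in resistant libraries. The groups were far apart with little spread inside either, at means of 17.4 ± 0.984 and 0.982 ± 0.0541 CPM and a log2 fold change of −4.14 (SE 0.11). Leaving out any one library gave between −4.19 and −4.11. In SUDHL16 S100A10 was low from the start, with 22, 0 and 26 counts in parental libraries (1.21, 0 and 1.61 CPM) and 0, 5 and 0 in resistant ones (0, 0.235 and 0 CPM). The 0 in CE-26 says little, because 3 counts there equal 0.998 CPM, and the groups overlapped through it. Without CE-26 both parental libraries were above all resistant ones, and the log2 fold change of −4.00 (SE 1.28) was not called. In a single fit of all 12 libraries, which shares the spread of each gene between the lines, S100A10 was called in SUDHL16 as well. In SUDHL6 resistant cells S100A10 was thus lower and ANXA2 was not, and in SUDHL16 resistant cells ANXA2 was lower and S100A10, at most 1.61 CPM in any library, was at or near 0.

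AHNAK, the giant scaffold that binds the annexin A2 and S100A10 complex (ENSG00000124942, minus strand of chromosome 11 from 62433542 to 62556235), showed no difference beyond its spread in SUDHL6. Its level there was 3.29, 3.07 and 3.93 CPM in parental and 3.0, 3.98 and 3.41 CPM in resistant libraries, a log2 fold change of 0.01 (SE 0.15). In SUDHL16 it was 0.385, 13.3 and 0.929 CPM in parental and 1.2, 0.47 and 0.297 CPM in resistant libraries. Only CE-26 was high. The log2 fold change was −2.86 (SE 1.35) with that library and −0.00 (SE 0.91) without it, and neither was called.

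The annexins ANXA5 and ANXA6, which bind phosphatidylserine at the wound and shape the repair patch, had the steadiest levels. ANXA5 (ENSG00000164111, minus strand of chromosome 4 from 121667946 to 121696995) had 57.0, 58.0 and 55.6 CPM in SUDHL6 parental and 58.4, 54.4 and 52.2 CPM in SUDHL6 resistant libraries. In SUDHL16 it had 128, 86.2 and 136 CPM in parental and 106, 118 and 106 CPM in resistant libraries. The groups overlapped in both lines, with log2 fold changes of −0.05 (SE 0.04) and −0.10 (SE 0.24), and −0.25 (SE 0.20) in SUDHL16 without CE-26. ANXA6, the annexin with a doubled core (ENSG00000197043, minus strand of chromosome 5 from 151100706 to 151157815), had 11.1, 12.1 and 11.9 CPM in SUDHL6 parental and 13.8, 12.3 and 10.8 CPM in resistant libraries. In SUDHL16 it had 184, 204 and 225 CPM in parental and 210, 211 and 207 CPM in resistant libraries. These groups overlapped too, with log2 fold changes of 0.07 (SE 0.09) and 0.02 (SE 0.23). ANXA1, the annexin that mediates the anti-inflammatory action of glucocorticoids (ENSG00000135046, plus strand of chromosome 9 from 73151865 to 73170393), was low in SUDHL6, at 0.47, 0.177 and 0.761 CPM in parental and 0.67, 0.94 and 0.605 CPM in resistant libraries. The groups overlapped, with a log2 fold change of 0.62 (SE 0.41) that was not called. In SUDHL16 its only counts were 3 in CE-26.

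S100A11, a partner of annexin A1 and annexin A2 (ENSG00000163191, minus strand of chromosome 1 from 152032506 to 152047907), was below the filter in SUDHL6, with 5 to 11 counts in each library. In SUDHL16 its level was 5.5, 20 and 10.6 CPM in parental and 7.56, 7.05 and 21.6 CPM in resistant libraries. One library stood highest in each group, CE-26 in the parental and CE-30 in the resistant one, and the groups overlapped. The log2 fold change was 0.02 (SE 0.60), 0.60 (SE 0.56) without CE-26 and −0.69 without CE-30. S100A4, the S100 protein that binds non-muscle myosin and is linked to cell migration (ENSG00000196154, minus strand of chromosome 1 from 153543613 to 153550136), went the other way from DYSF and ANXA2 in SUDHL16. It had 0, 0 and 0.434 CPM in parental libraries, from 0, 0 and 7 counts, and 2.14, 1.27 and 2.08 CPM in resistant libraries, from 32, 27 and 49 counts. The groups did not overlap, the log2 fold change was 3.31 (SE 1.25) and 3.08 (SE 1.15) without CE-26, and neither was called. It was 2.65 without CE-25 and 7.89 without CE-27, the only parental library with a count, where its size depends on the prior count. With voom and sample quality weights S100A4 was called, at 3.81. CE-26 could not have shown the resistant level clearly, since its floor of 3 counts is 0.998 CPM. In SUDHL6 S100A4 had 4, 2 and 5 counts in parental and 0, 6 and 7 in resistant libraries, below the filter. S100A10, S100A11 and S100A4 lie within 1.57 Mb of chromosome 1, and their patterns were not alike.

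Of the 10 genes, 7 passed the filter on low counts in SUDHL6 and 2 were called at an adjusted p under 0.05 and at least 1.5-fold, ANXA2 higher and S100A10 lower, where 8.96% of all 16662 genes tested were called. In SUDHL16 7 passed and 2 were called, DYSF and ANXA2, both lower, where 5.3% of 15708 genes were called. Without CE-26 8 passed and 2 were called, again DYSF and ANXA2, where 10.0% of 16280 genes were called. The median log2 fold change of the genes that passed was 0.07 in SUDHL6 (−0.00 over all genes) and −0.10 in SUDHL16 (−0.02 over all genes). Since the 10 genes were chosen from these contrasts, nothing is read from these shares. Fitted line by line, no gene of the set was called in the same direction in both lines. In a single fit of all 12 libraries S100A10, lower in the resistant cells of each line, was called in both. That fit shares the spread of each gene between the lines, so these calls are not independent of each other.

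The wider repair pathway was read from 69 genes of the same families and of related steps. They were listed by function, but with earlier results of these data known. In SUDHL6 37 of them were tested. Of these, 4 were called higher (10.8%, beside 8.96% of all genes called), none was called lower, and 33 were not called. Their median log2 fold change was 0.06 (−0.00 over all genes). Differences under 1.5-fold are not in this count. Those at an adjusted p under 0.05 went both ways, with CAPN1 higher and ANO6 lower, as given below. VAMP7, a vesicle SNARE of lysosomal exocytosis, was at 15.6, 14.2 and 15.6 CPM in parental and 67.5, 71.4 and 69.6 CPM in resistant libraries. The groups were far apart, with a log2 fold change of 2.2 (SE 0.05, edgeR adjusted p = 8.25e-12). CHMP1B, a subunit of the ESCRT-III complex that pinches off damaged membrane, rose from 20.1 ± 1.33 to 34.5 ± 0.84 CPM (log2 fold change 0.78, SE 0.06, edgeR adjusted p = 4.2e-07). AHNAK2, the relative of AHNAK, rose from 1.52 ± 0.228 to 3.03 ± 0.382 CPM (log2 fold change 1.0, SE 0.17, edgeR adjusted p = 0.00055). ANXA4, an annexin of secretory and epithelial cells, rose from 0.511 ± 0.361 to 1.90 ± 0.294 CPM (log2 fold change 1.90, SE 0.36, edgeR adjusted p = 0.00113). The log2 fold change was 2.57 without CE-7, the parental library with the highest ANXA4 (0.91 CPM). It was 1.54 without CE-8, the library with the lowest ANXA4 (0.206 CPM). These libraries had the lowest epithelial marker sums, which were close to each other. The part of such RNA in this difference was not tested. AHNAK2 and ANXA4 thus rose at low levels in the line in which AHNAK itself and ANXA5 did not differ beyond their spread. In a single fit of all 12 libraries, VAMP7 alone of the 4 was called.

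**Figure D3:**
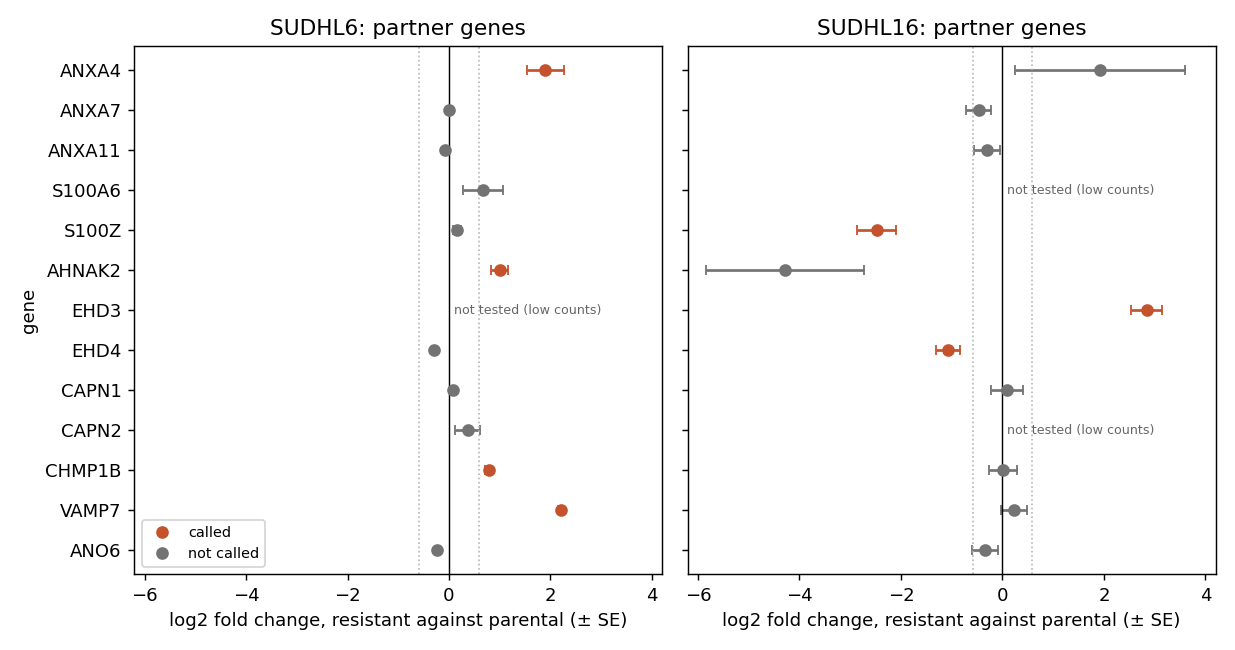
Log2 fold change, resistant against parental, of the named partner genes in SUDHL6 (left) and SUDHL16 (right), with bars for the SE, red points for genes called, grey points for genes not called and dotted lines at 1.5-fold. VAMP7 lies at 2.2 in SUDHL6, and EHD3 at 2.84 and S100Z at −2.48 in SUDHL16.

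In SUDHL16 34 of the 69 genes were tested, 1 rose, 2 fell (together 8.82%, beside 5.3% of all genes called) and 31 did not pass, with a median log2 fold change of 0.01 (−0.02 over all genes). EHD3, an ATPase that remodels endosomal membrane, was at 7.81, 15.3 and 8.92 CPM in parental and 68.7, 82.2 and 72.8 CPM in resistant libraries. Its groups did not overlap (log2 fold change 2.84, SE 0.31, edgeR adjusted p = 0.00201), and it was called under every alternative tried. S100Z, a little-studied S100 protein, was at 33.6, 13.6 and 27.9 CPM in parental and 5.28, 4.60 and 3.82 CPM in resistant libraries. The lowest parental value, that of CE-26, was still above all resistant ones (log2 fold change −2.48, SE 0.39, edgeR adjusted p = 0.0102), and the adjusted p was 0.0555, 0.0729 and 0.0673 when CE-28, CE-29 or CE-30 was left out. EHD4, a close relative of EHD3, fell from 151 ± 29.8 to 72.5 ± 8.29 CPM (log2 fold change −1.07, SE 0.24, edgeR adjusted p = 0.0407). Its adjusted p was between 0.131 and 0.201 when CE-25, CE-27, CE-28, CE-29 or CE-30 was left out.

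Without CE-26 7 of the 34 genes (20.6%) were called, 5 of them higher, beside 10.0% of all genes. The 4 added were ANXA4, BIN1, S100A1 and CHMP4B, of which BIN1, S100A1 and CHMP4B were chosen for naming after their values were seen. ANXA4 had 0, 15.6 and 0 CPM in the parental libraries CE-25, CE-26 and CE-27 and 19.9, 12.8 and 18.5 CPM in the resistant libraries. Only CE-26 of the parental libraries had ANXA4, and without it the gene was at least 195-fold higher in resistant cells (edgeR adjusted p = 0.000272, against 0.607 with it). BIN1, which bends membrane into tubules, had 0, 10.3 and 0 CPM in these parental and 21.5, 16.6 and 24.3 CPM in resistant libraries. Without CE-26 it was at least 238-fold higher (edgeR adjusted p = 0.000199, against 0.38 with it). S100A1, a calcium sensor of striated muscle, had 0, 2.33 and 0 CPM in parental and 5.48, 3.43 and 2.42 CPM in resistant libraries. Without CE-26 it was at least 43.2-fold higher (edgeR adjusted p = 0.0039, against 0.425 with it). CHMP4B, the main filament subunit of ESCRT-III, was at 57.9, 71.9 and 76.8 CPM in parental and 164, 104 and 168 CPM in resistant libraries (edgeR adjusted p = 0.0443 without CE-26, against 0.0635 with it).

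By family, 0 of the 3 other ferlins was tested in SUDHL6 and 1 in SUDHL16, and none was called. Of 9 other annexins, 4 were tested in SUDHL6 with ANXA4 called, and 3 in SUDHL16 with none called. ANXA7 and ANXA11, annexins of secretory granules and of RNA granule transport, did not pass in either line, with log2 fold changes of 0.00 (SE 0.03, edgeR adjusted p = 0.916) and −0.07 (SE 0.03, edgeR adjusted p = 0.0747) in SUDHL6 and of −0.47 (SE 0.24, edgeR adjusted p = 0.342) and −0.30 (SE 0.26, edgeR adjusted p = 0.604) in SUDHL16. Of 17 other S100 genes, 5 were tested in SUDHL6 with none called, and 3 in SUDHL16 with S100Z called. S100A6 had 0.472 ± 0.262 CPM in parental and 0.758 ± 0.206 CPM in resistant SUDHL6 cells (edgeR adjusted p = 0.221) and 0 counts in all SUDHL16 libraries. The calpain protease CAPN1 was at 130 ± 2.58 and 138 ± 1.68 CPM in SUDHL6, a difference under 1.5-fold (edgeR adjusted p = 0.0242), and CAPN2 at 0.739 ± 0.084 and 0.959 ± 0.186 CPM (edgeR adjusted p = 0.276). The lipid scramblase ANO6 was at 29.7 ± 0.524 and 25.3 ± 1.34 CPM in SUDHL6, also under 1.5-fold (edgeR adjusted p = 0.0052), and had a log2 fold change of −0.34 (SE 0.26, edgeR adjusted p = 0.55) in SUDHL16. Of 14 ESCRT genes, 13 were tested in each line, with CHMP1B called in SUDHL6 and none in SUDHL16. The resistance effect itself differed between the lines for 4 of 42 pathway genes tested (9.52%, by edgeR's interaction term), VAMP7, S100Z, EHD3 and CAVIN1, beside 7.16% of all 19621 genes.

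Protein-coding genes within 1 Mb of the 10 genes, which the choice of the genes did not use, were set beside all genes tested. A gene was taken if any part of it lay within 1 Mb, so its start site could lie farther away. That was so for EXOC6B (1372.5 kb from the start of DYSF) and FAM81A (1030.2 kb from that of ANXA2), named below. In SUDHL6 12 of 140 such neighbours (8.57%) were called, and in SUDHL16 6 of 128 (4.69%), beside 8.96% and 5.3% of all genes tested, coding or not. The share over coding genes alone was not computed. Around DYSF in SUDHL16, 9 neighbours were tested, 6 were lower, 1 was called (EXOC6B, a subunit of the exocyst, log2 fold change −2.07) and the median was −0.44, against 0.04 over all coding genes. Around ANXA2 in SUDHL16, all 5 tested neighbours were lower, 1 was called (FAM81A, −1.85) and the median was −0.61. Around S100A10 in SUDHL6, 8 of 29 were lower and 4 were called, of which only THEM4 (−1.20) was lower, with a median of 0.13 against −0.00 over all coding genes. The pattern around DYSF depended on the distance. Within 2 Mb, 11 of its 27 tested neighbours in SUDHL16 were lower, with a median of 0.17. That distance gave 12 of 13 lower and −0.38 for ANXA2 in SUDHL16, and 18 of 68 and 0.14 for S100A10 in SUDHL6. EXOC6B, FAM81A and THEM4 were named after their values were seen, and the neighbours are counted with no test.

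**Figure D4:**
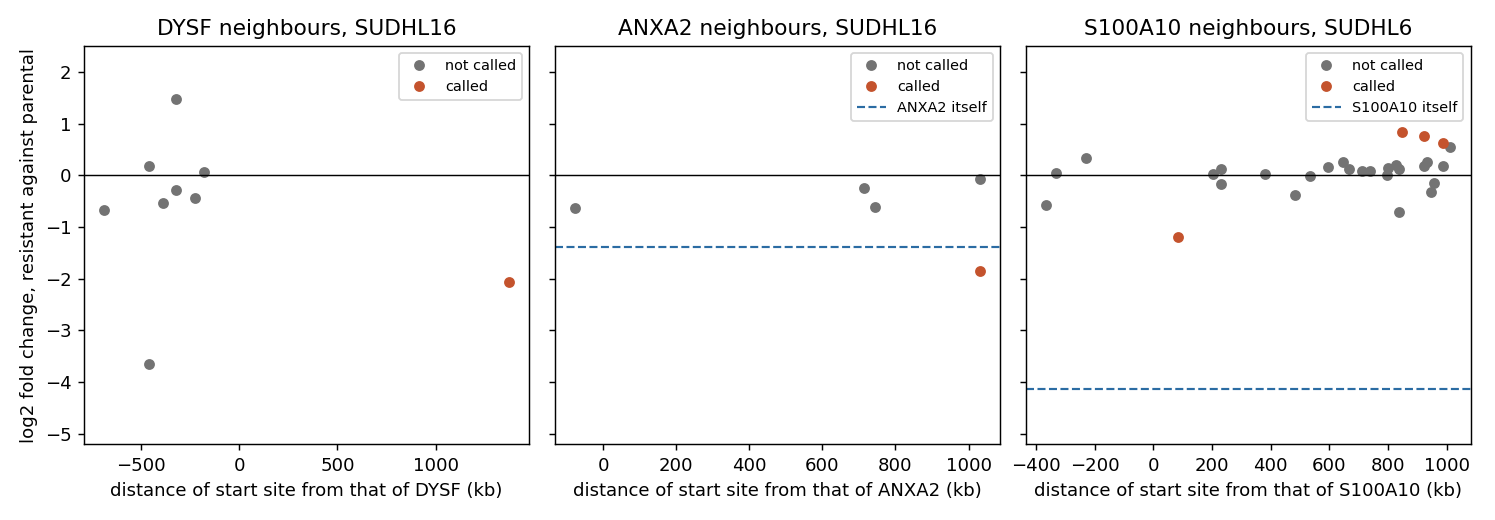
Log2 fold change, resistant against parental, of each tested protein-coding gene within 1 Mb of DYSF (SUDHL16), ANXA2 (SUDHL16) and S100A10 (SUDHL6). The horizontal axis is the distance of the start site in kilobases, with red points for genes called. It exceeds 1 Mb where only another part of the gene lies within 1 Mb. A dashed line marks ANXA2 or S100A10 itself. None is drawn for DYSF, which had no count in the resistant libraries and whose fitted fold depends on the prior count. All 5 neighbours of ANXA2 lie below 0, while 8 of the 29 neighbours of S100A10 do.

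The genes whose pattern over the 12 libraries was most like that of DYSF were RBMS3, an RNA-binding protein, SRGAP1, a regulator of the cytoskeleton, and GLUL, which makes glutamine. Likeness was the root mean square difference of log2(CPM + 0.1), each gene centred on its mean, computed for the 9958 coding genes that averaged 5 CPM or more, whose median was 3.77. It was 0.91 for RBMS3, 0.95 for SRGAP1 and 1.13 for GLUL. The CPM of these genes are scaled over all 12 libraries, unlike the DYSF levels given above. RBMS3 was at 91.0, 40.4 and 63.4 CPM in SUDHL16 parental and 0, 0.13 and 0.0795 CPM in resistant libraries. SRGAP1 was at 38.3, 60.6 and 53.5 CPM in parental and 0, 0 and 0.199 CPM in resistant libraries. GLUL was at 43.5, 24.8 and 41.6 CPM in parental and 0.36, 0 and 0 CPM in resistant libraries. All 3 were below 1 CPM in every SUDHL6 library, as DYSF was. They were picked for this likeness, so it is no test of a relation.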

How the data were processed

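RNA was measured by sequencing in 12 libraries of 2 lymphoma lines, parental and venetoclax-resistant, grouped by their labels. According to the submitters' notes and the methods, the authors trimmed reads with Trim Galore, aligned them to GRCh38 with HISAT2 and assembled them with StringTie. They deposited whole-number counts per gene without normalization, 1 table per library with the same 60675 Ensembl identifiers. The annotation, the counting tool and the use of strand are not given in the sources used here, so overlapping or near-identical genes could have shared reads. Of the identifiers, 56558 matched GENCODE release 44, which gave symbols and positions.

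The counts of each line were fitted alone with edgeR 4.0.16 (R 4.3.3), using filterByExpr, TMM scaling and the two-sided quasi-likelihood test. Genes at a Benjamini-Hochberg adjusted p under 0.05 over all genes tested and at least 1.5-fold were called. CPM are on the TMM scale of the line, and the SE was taken from the fold change and its F statistic. Levels per kilobase and the genes most like DYSF used TMM over all 12 libraries. Resistance effects were compared between lines by the interaction term of 1 joint fit of the 12 libraries. That fit shares the spread of each gene between the lines, although the spread of the lines differed (0.0516 for SUDHL6 and 0.468 for SUDHL16, as given below). For genes with 0 counts, 3 counts served as the floor. Where one arm had 0 counts throughout, a bound from that floor summed over the arm replaced the fitted fold change, which depends on the prior count. The fit was tested on simulated data. The common biological coefficient of variation was 0.0516 for SUDHL6, 0.468 for SUDHL16, and 0.339 when CE-26 was left out. No 2 libraries of a group were identical.

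The 10 genes, the 69 pathway genes and the marker lists were chosen with earlier results of these data known. Text names all 10 genes, every pathway gene called in either line (at most 15 per line), 8 that are always named (S100A6, ANXA4, ANXA7, ANXA11, AHNAK2, CAPN1, CAPN2 and ANO6), and the 3 genes most like DYSF. Alternatives were DESeq2 1.42.0, upper-quartile and unscaled library totals, no filter on low counts, 1 fit of all 12 libraries, voom with sample quality weights (limma 3.58.1), and leaving out each library. Promoter sequences are from RefSeq (GRCh38.p14). One B cell marker of the list is not reported here.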

Additional observations from a re-analysis of the deposited data

Results flagged for a closer look

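For 4 of the 42 pathway genes that could be tested, the resistance effect differed between the lines by the edgeR interaction test, where 7.16% of all 19621 genes did. The SUDHL16 effect minus the SUDHL6 effect was −1.95 (log2, SE 0.29, edgeR adjusted p = 0.00182) for VAMP7, which was at 14.2 to 15.6 CPM in parental and 67.5 to 71.4 CPM in resistant SUDHL6 libraries and at 59.6 to 107 CPM in all 6 SUDHL16 libraries. It was −2.65 (SE 0.42, edgeR adjusted p = 0.00239) for S100Z, which was lower in all 3 resistant SUDHL16 libraries and at 11 to 13.8 CPM in all 6 SUDHL6 libraries. It was 3.21 (SE 0.58, edgeR adjusted p = 0.00588) for EHD3, which had at most 8 counts in any SUDHL6 library. It was −7.94 (SE 2.06, edgeR adjusted p = 0.0499) for CAVIN1, a coat protein of caveolae, which had 5, 8 and 2 counts in SUDHL16 parental libraries, 0 in the resistant ones, and 16, 10 and 49 against 65, 35 and 30 in SUDHL6. With one arm at 0, the size of that last value depends on the prior count and is no bound. Line, kit and instrument cannot be told apart in any of these 4, and the test shares the spread of each gene between the lines. For this difference between the lines only CE-26 was left out, and the remaining libraries were not left out in turn.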

How the results depend on the processing

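Of the alternatives run for the named genes, none reversed a direction that had been called. Of the values of the pathway genes named by the rule above, 212 kept their side of the threshold, 13 lost it and 3 gained it. BIN1, S100A1, CHMP4B and CAVIN1 are not in this tally. In SUDHL16 BIN1, S100A1 and CHMP4B gained a call without CE-26 and with voom. CHMP4B also gained one with DESeq2 and in a single fit of all 12 libraries, as did CAVIN1 in that single fit. DYSF was called in SUDHL16, and S100A10 in SUDHL6, under every alternative run. The number of the 10 genes called in SUDHL6 was 2, became 1 with no filter on low counts and 1 in a single fit of all 12 libraries (ANXA2 lost in each), and ranged from 1 to 3 when each library was left out. In SUDHL16 it was 2, became 1 with library totals without scaling (ANXA2 lost), 3 in a single fit of all 12 libraries (S100A10 gained) and 3 with voom and sample quality weights (S100A4 gained), and ranged from 1 to 2 when each library was left out. Of the pathway genes, 4 were called in SUDHL6, 1 in a single fit of all 12 libraries, and 4 to 6 when each library was left out. In SUDHL16 3 were called, 7 with DESeq2, 6 in a single fit of all 12 libraries, 7 with voom and sample quality weights, and 1 to 7 when each library was left out, with 7 without CE-26 and 1 without CE-28, CE-29 or CE-30. The difference between the lines was called for 4 of them, and for 10 without CE-26. The share of neighbours called in SUDHL16 was 4.69% within 1 Mb and 2.63% within 2 Mb. The causes of these changes were not tested. No paired analysis was possible because the labels give no replicate numbers and those used here only follow the order of the samples. Limits of depth bear most on CE-26, where 3 counts equal 0.998 CPM, and on genes at low levels near the counting floor. These are MYOF, ANXA1 and S100A4, S100A10 in SUDHL16, and DYSF and S100A11 in SUDHL6. In SUDHL6 resistant libraries S100A10 was low, at 35 to 42 counts, but above the floor of 3 counts.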
